A study of Homo sapiens with 12 samples.

Results

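Transcript levels of 9 genes of BMP and FGF signalling, BMP4, BMP2, SOSTDC1, SMAD6, SMAD7, ID1, ID2, ID3 and FGF19, were followed in HT-29, a line from a human colorectal adenocarcinoma, during treatment that drives necroptosis. They were taken by gene symbol from a table of 19128 symbols. The genes were chosen from earlier results of these same libraries, so their own values and changes are given as a description, without p-values. TBZ is the joint treatment with 20 ng/mL TNFa, a cytokine, 2 µM BV6, an antagonist of inhibitor of apoptosis proteins, and 30 µM zVAD-fmk, a caspase blocker. The second experiment had 8 libraries, 2 in each of 4 groups: shMLKL cells under TBZ for 5 h, shMLKL cells under DMSO, shGFP cells under TBZ for 5 h and shGFP cells under DMSO. The first experiment had 1 library each of parental cells under TBZ for 4 h, parental cells under DMSO, shMLKL cells under TBZ for 12 h and shMLKL cells under DMSO. The shMLKL line carries a lentiviral knockdown of MLKL, the pseudokinase whose oligomers open the cell membrane at the end of necroptosis, and the shGFP line carries a control hairpin. The length of the DMSO treatment, and whether a line is 1 clone or a pool, are not given in the sources used here.

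BMP ligands bind type I and type II receptor kinases, which phosphorylate SMAD1, SMAD5 and SMAD9. These join SMAD4 and switch on a short list of direct targets, among them the ID genes, whose proteins block basic helix-loop-helix transcription factors, and the inhibitory SMADs, SMAD6 and SMAD7, which close a negative feedback loop. In the gut, BMP signalling is strongest away from the crypt base, where it restrains stem cells and favours differentiation. FGF19 is a hormone of the ileum that is made in answer to bile acids and acts on the liver through FGFR4 and its partner KLB. HT-29 cells are known to carry a truncating mutation of SMAD4.

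The RefSeq promoter table (GRCh38.p14, windows of 300 bases, from 250 before to 50 after a start) held windows of 6 of the 9 genes, 10 in all. Both strands were searched for GTCTAGAC, a palindromic SMAD element, GGCGCC, a GC-rich element bound by SMAD1 and SMAD5, the shorter SMAD element CAGAC, the AP-1 element TGANTCA, the element TGACGTCA for CREB and ATF proteins, and the kappaB consensus. None of the motifs overlapped another in these windows. GTCTAGAC stood in 0.202% of all 35116 windows and GGCGCC in 19.2%. CAGAC stood in 45.3%, TGANTCA in 7.71%, TGACGTCA in 1.85% and the kappaB consensus in 5.91%. The SMAD6 window held GTCTAGAC, the first of the 3 BMP4 windows held GGCGCC at 2 places, and CAGAC was found in windows of BMP4, SMAD7 and ID3. No window of the 6 genes held the letters of TGANTCA, TGACGTCA or the kappaB consensus. Shown here, with GTCTAGAC and GGCGCC in capitals, are the windows of 3 genes that were lower under TBZ in shMLKL cells: BMP4 (chr14:53955001-53955300, reverse strand), SMAD6 (chr15:66701986-66702285, forward strand) and ID1 (chr20:31605039-31605338, forward strand), which held none of the 6 motifs.
BMP4: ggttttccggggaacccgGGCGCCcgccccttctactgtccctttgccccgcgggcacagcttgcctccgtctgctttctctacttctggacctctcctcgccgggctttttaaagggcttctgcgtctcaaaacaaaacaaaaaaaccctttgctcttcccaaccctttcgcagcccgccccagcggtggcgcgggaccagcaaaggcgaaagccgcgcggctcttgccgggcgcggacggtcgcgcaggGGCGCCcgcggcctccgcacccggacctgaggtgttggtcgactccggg
SMAD6: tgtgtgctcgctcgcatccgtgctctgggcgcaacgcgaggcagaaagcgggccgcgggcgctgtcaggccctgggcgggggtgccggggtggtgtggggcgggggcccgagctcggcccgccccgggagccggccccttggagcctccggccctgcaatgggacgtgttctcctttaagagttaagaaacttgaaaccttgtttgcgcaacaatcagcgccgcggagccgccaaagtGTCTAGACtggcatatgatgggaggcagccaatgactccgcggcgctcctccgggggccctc
ID1: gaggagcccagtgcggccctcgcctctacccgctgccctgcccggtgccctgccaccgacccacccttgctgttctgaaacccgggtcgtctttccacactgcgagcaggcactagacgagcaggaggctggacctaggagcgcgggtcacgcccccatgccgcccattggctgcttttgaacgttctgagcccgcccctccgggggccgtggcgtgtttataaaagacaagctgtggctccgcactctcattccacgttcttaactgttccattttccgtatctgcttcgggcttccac

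Values of the first experiment were deposited as FPKM, a fragment count scaled to transcript length and library size. Those of the second experiment came without a named unit and were taken as FPKM. No read counts came with the deposited values, so absolute depth is unknown. The commonest ratio of very low values put the relative depth of the 8 libraries at 82.9 to 100% of the deepest. Across genes, the Pearson correlation of log2 values was 0.989 to 0.992 within groups and 0.928 to 0.967 between groups. Separate cultures are not mentioned in the labels, and p-values then measure only the spread between these libraries, which may be technical. MLKL averaged 0.575 FPKM in shMLKL cells and 3.92 FPKM in shGFP cells under DMSO (a difference of −1.64 on the log2 scale, SE 0.10). Under TBZ it averaged 0.523 against 2.00 FPKM (−0.99, SE 0.10). Its mean reached 1 FPKM in the shGFP groups alone, so no p-values are given for it. Of 12 markers of colorectal epithelium, 6 reached 1 FPKM in every library, and CDX1, CDX2 and GPA33 in none. KRT8 and KRT18 were listed at 0 in 7 of the 8 libraries and at 694 and 535 FPKM in shMLKL DMSO library 2, so an exact 0 in this table can be a failed estimate. None of 11 stromal markers reached 1 FPKM in every library, and DCN, PDGFRA and GREM1 were at 0 in all 8. Their summed level was 0.852 to 1.37 FPKM in shMLKL cells and 2.00 to 2.46 FPKM in shGFP cells, most of it ACTA2, and its part in the differences between the lines was not tested. Changes are differences of log2(FPKM + 1), which understate the fold changes of genes near 0. They come from a limma fit over the 10364 genes whose mean reached 1 FPKM in any of the 4 groups. A gene is called where its p, adjusted by Benjamini and Hochberg over those genes, is under 0.05. The median of all genes shifted by −0.12 under TBZ in shGFP cells, by 0.10 in the difference between the lines' TBZ effects and by −0.16 between the lines under DMSO, and changes in these comparisons are also given relative to it. In all these bulk samples, fewer cells with a transcript and less of it per cell cannot be told apart.

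BMP4, a secreted BMP ligand (hg19 chromosome 14, 54416455 to 54423554, reverse strand), was the most abundant BMP ligand of these cells under DMSO and was far lower under TBZ in both lines. It had 6.05 and 6.59 FPKM in shMLKL cells under TBZ, against 34.2 and 32.2 FPKM under DMSO. In shGFP cells it had 7.45 and 6.82 FPKM under TBZ, against 71.9 and 67.4 FPKM under DMSO. All 4 TBZ libraries lay below every DMSO library, and the lines differed mainly under DMSO. The TBZ mean was 5.25-fold lower in shMLKL cells (6.32 ± 0.382 against 33.2 ± 1.41 FPKM, SD, n = 2 each) and 9.77-fold lower in shGFP cells (7.13 ± 0.444 against 69.7 ± 3.17 FPKM). The log2 change was −2.22 in shMLKL cells and −3.12 in shGFP cells (SE 0.06 each), the second being −3.00 relative to the median of all genes. Under DMSO the shMLKL mean was 47.7% of the shGFP mean, and under TBZ 88.7%.

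BMP2, the closest relative of BMP4 (chromosome 20, 6748745 to 6760910, forward strand), moved the other way. It had 2.59 and 2.66 FPKM in shMLKL cells under TBZ, against 1.38 and 1.50 FPKM under DMSO. The shGFP cells had 5.08 and 4.38 FPKM under TBZ, against 1.77 and 1.37 FPKM under DMSO. The TBZ and DMSO libraries did not overlap in either line, and the DMSO libraries of the lines did. The mean under TBZ was 1.82 times the DMSO mean in shMLKL cells (log2 change 0.57, SE 0.10) and 3.01 times in shGFP cells (1.16, SE 0.10, and 1.28 relative to the median). Under TBZ the shMLKL mean was 55.5% of the shGFP mean.

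The make-up of the BMP ligands thus differed between the treatments. The 10 BMP ligands of the fixed gene list summed to 9.11 ± 0.451 FPKM in shMLKL cells under TBZ and 34.8 ± 1.39 FPKM under DMSO, and to 12.1 ± 0.891 FPKM in shGFP cells under TBZ and 71.3 ± 3.49 FPKM under DMSO (SD, n = 2 each). BMP4 made up 69.4 ± 0.764% of that sum in shMLKL cells under TBZ and 95.6 ± 0.235% under DMSO. In shGFP cells it made up 59.1 ± 0.679% under TBZ and 97.7 ± 0.340% under DMSO. The ratio of BMP4 to BMP2 was 2.33 and 2.48 in shMLKL cells under TBZ, against 24.8 and 21.4 under DMSO, and 1.47 and 1.55 in shGFP cells under TBZ, against 40.5 and 49.2 under DMSO. BMP2 therefore remained the smaller of the pair in each of the 8 libraries.

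**Figure D1:**
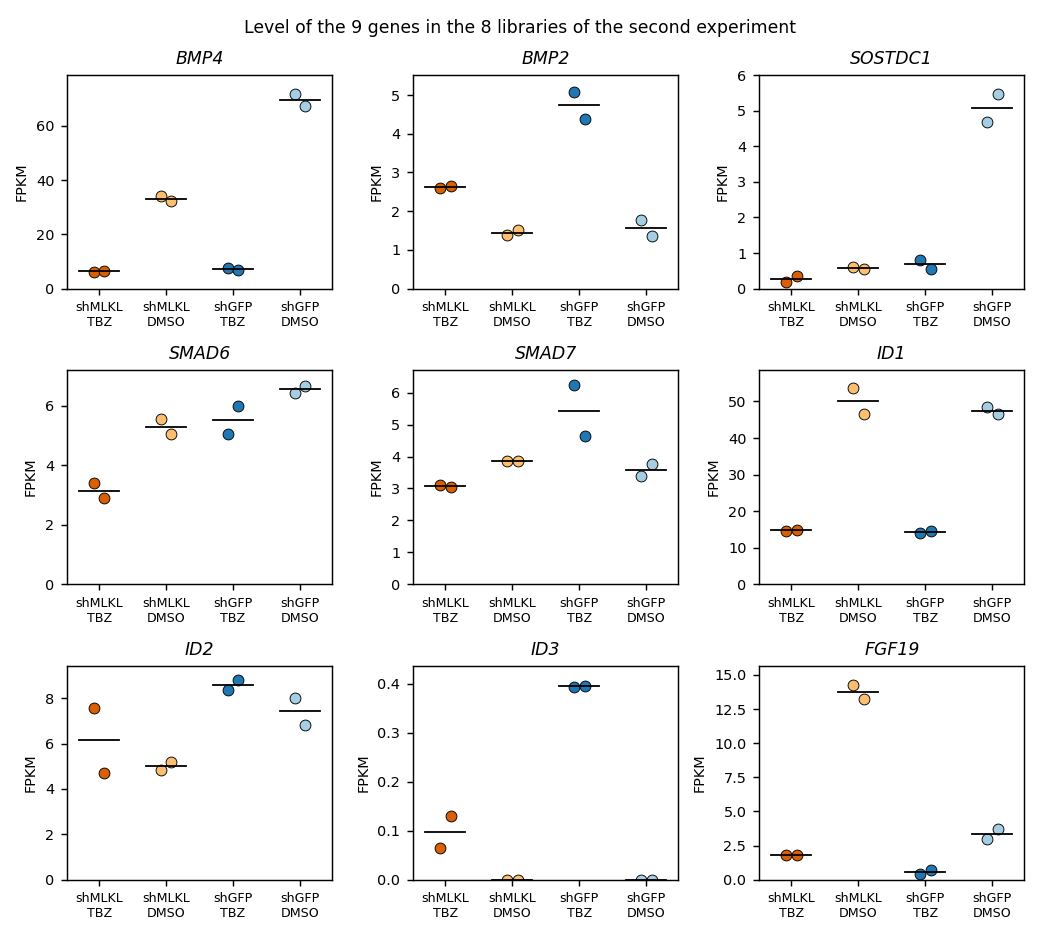
FPKM (linear axes from 0) of the 9 genes in the 8 libraries of the second experiment, by group; points are libraries and lines are means of 2. BMP4 and ID1 lie far lower under TBZ than under DMSO in both lines, and BMP2 higher, while SOSTDC1 stands at 5.07 FPKM on average in shGFP cells under DMSO and under 1 FPKM in the other groups.

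SOSTDC1, a secreted antagonist of BMP and WNT ligands (chromosome 7, 16501106 to 16505474, reverse strand), was, in the second experiment, highest in shGFP cells under DMSO. It had 0.199 and 0.364 FPKM in shMLKL cells under TBZ, against 0.596 and 0.563 FPKM under DMSO. In shGFP cells it had 0.803 and 0.562 FPKM under TBZ, against 4.67 and 5.47 FPKM under DMSO. Within that experiment it reached 1 FPKM in that last group alone, and passed the filter on low values only through it. The TBZ mean was 7.42-fold lower in shGFP cells (log2 change −1.85, SE 0.11, and −1.73 relative to the median). In shMLKL cells it was 2.06-fold lower (−0.30, SE 0.11), which was not called with the pseudocount of 1 and was with a pseudocount of 0.1 (−0.87). Under DMSO the shMLKL mean was 8.74-fold lower than the shGFP mean (0.580 ± 0.0232 against 5.07 ± 0.564 FPKM, SD, n = 2 each).

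SMAD6 and SMAD7, the inhibitory SMADs, did not move as a pair. SMAD6, which mainly restrains BMP receptors (chromosome 15, 66994674 to 67074337, forward strand), had 3.38 and 2.90 FPKM in shMLKL cells under TBZ, against 5.56 and 5.04 FPKM under DMSO. Levels in shGFP cells were 5.04 and 5.97 FPKM under TBZ, against 6.42 and 6.66 FPKM under DMSO. The TBZ libraries were below the DMSO libraries in both lines, by a log2 change of −0.61 (SE 0.09) in shMLKL cells and −0.22 (SE 0.09) in shGFP cells. The shGFP change was −0.10 relative to the median and was not called. It was called, at −0.32, without shGFP TBZ replicate 2.

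SMAD7, which also restrains TGF-beta receptors (chromosome 18, 46446223 to 46477081, reverse strand), had 3.11 and 3.05 FPKM in shMLKL cells under TBZ, against 3.86 and 3.87 FPKM under DMSO. In shGFP cells it had 6.23 and 4.65 FPKM under TBZ, against 3.41 and 3.78 FPKM under DMSO. The libraries did not overlap in either line, with TBZ below DMSO in shMLKL cells and above it in shGFP cells. The log2 change was −0.26 (SE 0.11) in shMLKL cells, which was not called, and 0.48 (SE 0.11; 0.60 relative to the median) in shGFP cells. The call in shGFP cells was lost without shGFP DMSO replicate 1 (0.42), and the change in shMLKL cells was called (−0.26) without either shGFP TBZ library.

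ID1, the most abundant of the ID genes (chromosome 20, 30193086 to 30194317, forward strand), was lower under TBZ in both lines. It had 14.7 and 14.9 FPKM in shMLKL cells under TBZ, against 53.8 and 46.5 FPKM under DMSO. The shGFP libraries had 14.1 and 14.5 FPKM under TBZ, against 48.4 and 46.4 FPKM under DMSO. The TBZ mean was 3.40-fold lower in shMLKL cells (log2 change −1.69, SE 0.07) and 3.32-fold lower in shGFP cells (−1.66, SE 0.07, and −1.54 relative to the median). The 2 changes differed by −0.03 (SE 0.09). Under DMSO the libraries of the lines overlapped. BMP4 was more than 2-fold lower there in shMLKL cells, and a link between the levels of BMP4 and ID1 was not tested. With library medians set equal, ID1 was called higher in shMLKL than in shGFP cells under DMSO (0.25).

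ID2 (chromosome 2, 8822113 to 8824583, forward strand) did not share that fall. It had 7.57 and 4.71 FPKM in shMLKL cells under TBZ, against 4.82 and 5.21 FPKM under DMSO, and these libraries overlapped. In shGFP cells it had 8.35 and 8.79 FPKM under TBZ, against 8.03 and 6.80 FPKM under DMSO. The log2 changes were 0.22 in shMLKL and 0.19 in shGFP cells (SE 0.17 each), and neither was called. One library decided the value in shMLKL cells, where the change was 0.51, and called, without shMLKL TBZ replicate 2 and −0.07 without shMLKL TBZ replicate 1.

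ID3 (chromosome 1, 23884421 to 23886285, reverse strand) lay near the lower end of the table and did not pass the filter. It had 0.0641 and 0.130 FPKM in shMLKL cells under TBZ, and was listed at 0 in both libraries under DMSO. The shGFP values were 0.394 and 0.396 FPKM under TBZ, against a listed 0 in both libraries under DMSO. It was above 0 in the 4 TBZ libraries and in none of the 4 DMSO libraries, and no fold is given against a listed 0. The highest group mean of ID4 was 0.00761 FPKM, in shGFP cells under DMSO. ID1 made up 70.6 ± 6.83% of the summed ID1 to ID4 level in shMLKL cells under TBZ and 90.9 ± 1.31% under DMSO, and 61.5 ± 0.358% in shGFP cells under TBZ and 86.5 ± 1.04% under DMSO (SD, n = 2 each). The summed level was 21.0 ± 1.84 FPKM in shMLKL cells under TBZ, 55.2 ± 4.89 FPKM under DMSO, 23.3 ± 0.590 FPKM in shGFP cells under TBZ and 54.9 ± 2.29 FPKM under DMSO.

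FGF19 (chromosome 11, 69513006 to 69519106, reverse strand), the bile acid hormone, was lower under TBZ in both lines and higher in the shMLKL line. It had 1.82 and 1.81 FPKM in shMLKL cells under TBZ, against 14.2 and 13.2 FPKM under DMSO. In the shGFP line it had 0.391 and 0.727 FPKM under TBZ, against 2.98 and 3.73 FPKM under DMSO. None of the 4 groups overlapped another. The TBZ mean was 7.57-fold lower in shMLKL cells (log2 change −2.39, SE 0.12) and 6.01-fold lower in shGFP cells (−1.49, SE 0.12, and −1.36 relative to the median). The shMLKL mean was 4.09 times the shGFP mean under DMSO (log2 difference 1.76, SE 0.12, and 1.92 relative to the median) and 3.25 times under TBZ (0.86, SE 0.12). Of the 22 FGF family genes listed it was the only one to reach a group mean of 1 FPKM. It held 71.6 ± 0.667% of their sum in shMLKL cells under TBZ and 95.7 ± 0.924% under DMSO (SD, n = 2 each). In shGFP cells it held 28.0 ± 2.36% under TBZ and 74.7 ± 6.69% under DMSO. That sum was 2.53 ± 0.0267 FPKM in shMLKL cells under TBZ and 14.3 ± 0.619 FPKM under DMSO. In shGFP cells it was 1.97 ± 0.682 FPKM under TBZ and 4.48 ± 0.314 FPKM under DMSO, so the shares under TBZ rest on low values.

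**Figure D2:**
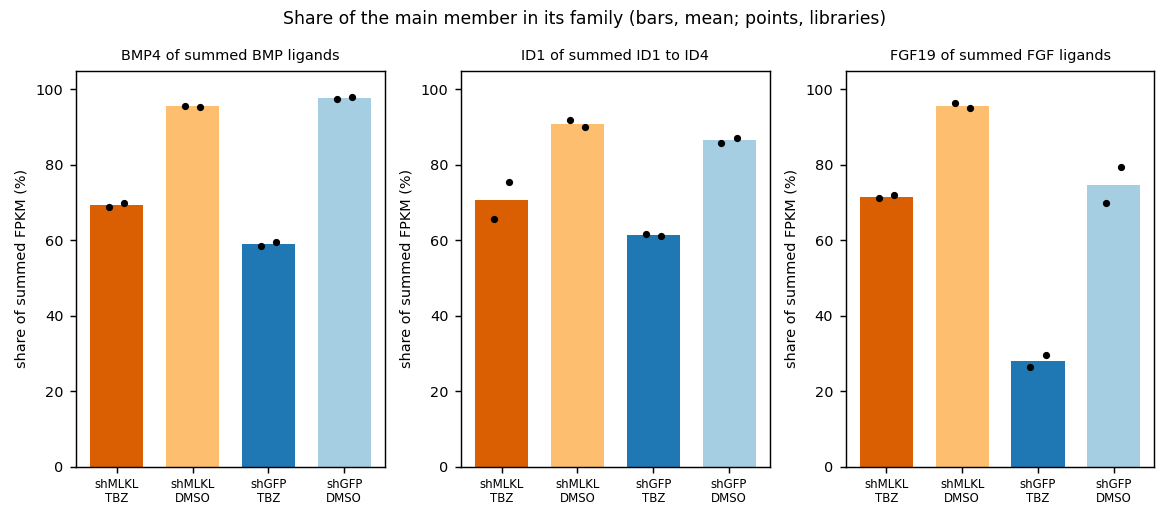
Share (percent, axis from 0) of BMP4 in the summed FPKM of 10 BMP ligands, of ID1 in ID1 to ID4 and of FGF19 in 22 FGF family genes, by group. Bars are means of 2 libraries and points are the libraries. The TBZ bar is below the DMSO bar of the same line in all 3 panels, with BMP4 at 59.1% in shGFP cells under TBZ and 97.7% under DMSO.

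Of the 8 genes that passed the filter, 1 was called higher (BMP2) and 4 lower (BMP4, SMAD6, ID1 and FGF19) under TBZ in shMLKL cells, where 20.0% of all genes were called higher and 17.6% lower. In shGFP cells 2 were called higher (BMP2 and SMAD7) and 4 lower (BMP4, SOSTDC1, ID1 and FGF19), where 19.1% of all genes were called higher and 37.3% lower. Of all genes called in shGFP cells, 33.9% were higher as deposited, against 44.5% when library medians were equalised and 40.0% when quantiles were. The median log2 change of the 8 genes was −0.46 in shMLKL cells and −0.85 in shGFP cells, and that of all genes was −0.004 and −0.12. The genes were chosen on these contrasts, so nothing is read from these counts.

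The size of the TBZ effect in the 2 lines was compared by the difference of the effects, shMLKL minus shGFP. Of the 8 genes 5 were called, where 22.3% of all genes were, and since the genes were chosen with these values known the calls are a description. The difference was 0.90 (SE 0.09; 0.79 relative to the median) for BMP4 and 1.55 (SE 0.16; 1.44 relative to the median) for SOSTDC1, both with a smaller TBZ change and a lower DMSO level in shMLKL cells. It was −0.59 (SE 0.14; −0.69 relative to the median) for BMP2, −0.73 (SE 0.16; −0.84) for SMAD7 and −0.90 (SE 0.17; −1.004) for FGF19. The FGF19 call rests on the pseudocount: with 0.1 FPKM the difference was −0.42 and not called, and TBZ left 13.2% of the DMSO mean in shMLKL cells and 16.6% in shGFP cells. The BMP2 call was lost without the filter on low values (−0.59) and when any of 6 of the 8 libraries was left out (−0.47 to −0.70 over the 8), and the SMAD7 call when any of 4 was (−0.56 to −0.91). The SMAD6 difference of −0.39 was not called as deposited and was with library medians set equal (−0.48) or after quantile normalization (−0.47).

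Between the lines under DMSO, 5 of the 8 genes were called, where 63.1% of all genes were. BMP4 (log2 difference −1.05, SE 0.06; −0.88 relative to the median) and SOSTDC1 (−1.94, SE 0.11; −1.78) were lower in shMLKL cells, and FGF19 was higher. SMAD6 (−0.26, SE 0.09; −0.10) and ID2 (−0.48, SE 0.17; −0.32) were also called lower, but neither was once library medians were set equal (−0.09 and −0.31). Under TBZ 5 of the 8 were called, where 51.7% of all genes were. FGF19 was higher in shMLKL cells, while BMP2 (−0.66, SE 0.10), SMAD6 (−0.65, SE 0.09), SMAD7 (−0.65, SE 0.11) and SOSTDC1 (−0.39, SE 0.11) were lower. The SOSTDC1 call was lost with library medians set equal (−0.32), after quantile normalization (−0.25), without shGFP TBZ replicate 1 (−0.29) and without shMLKL TBZ replicate 1 (−0.30).

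**Figure D3:**
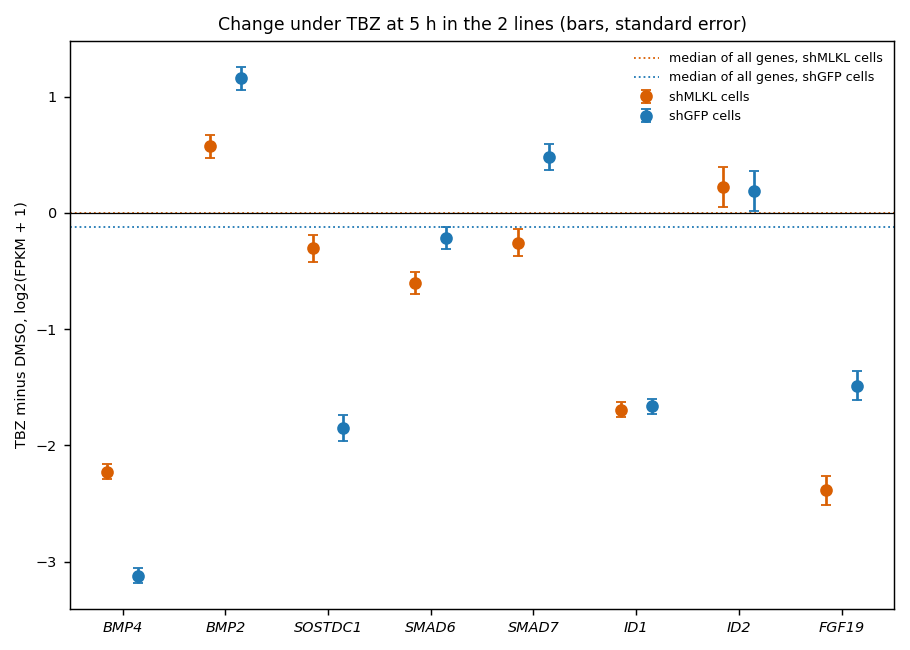
Change under TBZ at 5 h, as the difference of log2(FPKM + 1) between TBZ and DMSO, in shMLKL and shGFP cells for the 8 genes that passed the filter; bars are standard errors and dotted lines the median of all 10364 genes. The 2 lines lie side by side for ID1 (−1.69 and −1.66) and apart for BMP4 (−2.22 and −3.12), and SMAD7 lies below 0 in shMLKL cells and above it in shGFP cells.

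In the second experiment the BMP receptor genes that passed the filter, and FGFR4, changed by less than 1 on the log2 scale in both lines. The gene lists used from here on were drawn up with earlier results of these data known. Most genes named from the lists were picked for large called changes under TBZ in the second experiment. Their adjusted p-values are therefore a description and support nothing. Counts from the lists are of that experiment. They stand beside 20.0% of all genes called higher and 17.6% lower under TBZ in shMLKL cells, and 19.1% higher and 37.3% lower in shGFP cells. Of 8 BMP receptor and co-receptor genes kept, 3 were higher and 2 lower under TBZ in shMLKL cells (median log2 change 0.13, all genes −0.004), and 2 were higher and 3 lower in shGFP cells (median −0.07, all genes −0.12). BMPR1A, a type I receptor for BMP2 and BMP4, averaged 5.45 FPKM under TBZ and 7.34 FPKM under DMSO in shGFP cells (log2 change −0.38, SE 0.10, limma adjusted p = 0.0136). In shMLKL cells its change was −0.09 (limma adjusted p = 0.497). BMPR2, the type II receptor, changed by 0.22 in shMLKL cells (limma adjusted p = 0.0237) and by −0.05 in shGFP cells (limma adjusted p = 0.516). ACVR1, another type I receptor, changed by −0.26 in shMLKL cells (limma adjusted p = 0.0058) and by 0.17 in shGFP cells (limma adjusted p = 0.0231). ACVR2B, a type II receptor, passed the filter only through shGFP cells under DMSO, so its changes are given without p-values. It was lower under TBZ in shMLKL cells (−0.31) and in shGFP cells (−0.55). Its place among the genes counted as lower in both lines is likewise not read. RGMB, a BMP co-receptor, was higher in both (0.56 and 0.39 in shMLKL and shGFP cells, limma adjusted p = 0.00499 and 0.0173). ACVR2A was not called in either line, ENG was called lower in shGFP cells only as deposited (−0.26, limma adjusted p = 0.043) and in neither scaling, and BMPR1B did not pass the filter. In the first experiment, without a test, BMPR1A had 1.76 FPKM in parental cells after 4 h of TBZ, against 5.53 FPKM under DMSO. ACVR1 had 5.89 against 13.4 FPKM there, and BMPR2 7.11 against 7.13 FPKM. In shMLKL cells after 12 h BMPR1A had 5.16 against 5.57 FPKM, ACVR1 10.7 against 10.9 FPKM and BMPR2 9.99 against 6.55 FPKM.

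Among the SMADs and their regulators, leaving out SMAD6 and SMAD7, 6 of 16 were higher and 3 lower under TBZ in shMLKL cells (median 0.06), and 9 were higher and 5 lower in shGFP cells (median 0.18). Of all genes 20.0% were called higher and 17.6% lower in shMLKL cells, and 19.1% higher and 37.3% lower in shGFP cells. SMAD1, a BMP-activated SMAD, averaged 10.3 FPKM under TBZ and 4.60 FPKM under DMSO in shMLKL cells (log2 change 1.02, SE 0.06, limma adjusted p = 1.79e-05). In shGFP cells SMAD1 averaged 8.73 FPKM under TBZ and 6.77 FPKM under DMSO (0.33, SE 0.06, limma adjusted p = 0.00322). SMAD5, its paralogue, was lower in shGFP cells (−0.34, limma adjusted p = 0.000783), with a change of −0.01 in shMLKL cells, and SMAD9 did not pass the filter. SMAD4, the shared partner, stood between 1.15 and 1.59 FPKM in every library and was not called in either line. SMAD3, which carries TGF-beta and activin signals, rose in both lines (0.95 in shMLKL cells, limma adjusted p = 3.54e-06, and 1.51 in shGFP cells, limma adjusted p = 1.54e-07). SKI, a corepressor of SMADs, was higher in both (0.72 and 0.55 in shMLKL and shGFP cells), and CTDSP1, a phosphatase that acts on SMADs, was lower in both (−0.56 and −0.73 in shMLKL and shGFP cells). In the first experiment, without a test, SMAD1 had 3.73 FPKM in parental cells after 4 h of TBZ, against 1.34 FPKM under DMSO. In shMLKL cells after 12 h it was lower under TBZ, with 2.96 against 4.48 FPKM.

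Other genes listed as BMP targets were called in both directions. Leaving out the 4 that are among the 9 genes, 2 of 7 were higher and 4 lower in shMLKL cells (median −0.58). In shGFP cells 2 were higher and 4 lower (median −0.32). Beside these stand 20.0% higher and 17.6% lower of all genes in shMLKL cells and 19.1% and 37.3% in shGFP cells. GATA3, counted as lower in both lines, passed the filter only through its DMSO groups, so its calls are not read. GATA2, a transcription factor, averaged 1.30 FPKM under TBZ and 2.86 FPKM under DMSO in shMLKL cells (−0.74, SE 0.10, limma adjusted p = 0.000786), and 1.11 against 10.1 FPKM in shGFP cells (−2.39, SE 0.10, limma adjusted p = 8.88e-07). Like BMP4 and SOSTDC1 it fell less in shMLKL cells, by a difference of the effects of 1.65. RUNX2, a transcription factor of bone, was lower in both (−1.11 and −1.09 in shMLKL and shGFP cells, limma adjusted p = 3.49e-05 and 2.1e-05). JUNB, an AP-1 subunit that many stimuli induce, rose by 0.52 in shMLKL cells (limma adjusted p = 0.00134) and by 1.95 in shGFP cells (limma adjusted p = 7.04e-07). TBX3 rose more in shMLKL cells (1.14) than in shGFP cells (0.45), with a difference of the effects of 0.69. HES1, better known as a NOTCH target, was lower in both (−0.58 and −0.32 in shMLKL and shGFP cells, limma adjusted p = 0.00212 and 0.0202).

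Of the secreted BMP antagonists other than SOSTDC1, 4 passed the filter and 1 was called in each line, TWSG1, which binds BMPs and was higher under TBZ (0.57 and 0.46 in shMLKL and shGFP cells, limma adjusted p = 0.000188 and 0.000345). Beside this count and the next ones stand 20.0% of all genes called higher and 17.6% lower in shMLKL cells. In shGFP cells these shares were 19.1% and 37.3%. Among NOG, GREM1, CHRD and FST the highest group mean was 0.0343 FPKM, of FST. Of the other BMP and GDF ligands 2 passed. GDF15, a stress-induced cytokine that does not act through BMP receptors, fell by 0.59 in shMLKL cells (limma adjusted p = 7.18e-05) and rose by 1.15 in shGFP cells (limma adjusted p = 1.05e-06). GDF11 was listed at 0 in both shMLKL DMSO libraries and at 1.05 to 1.46 FPKM in the other 6, so its change in shMLKL cells is not read. Of 6 TGF-beta and activin genes kept, 1 was higher and 3 lower in shMLKL cells and 2 were higher and 4 lower in shGFP cells, among them TGFBR2, the type II TGF-beta receptor, lower in both (−0.49 and −0.62 in shMLKL and shGFP cells, limma adjusted p = 0.00176 and 0.000356). TGFBR1, its type I partner, was higher in both (0.56 and 0.46 in shMLKL and shGFP cells, limma adjusted p = 0.000558 and 0.000907). TGFBR3, the co-receptor betaglycan, was lower in shGFP cells (−0.83, limma adjusted p = 0.000107), and TGFB2 was lower in shMLKL cells (−0.54, limma adjusted p = 0.00292). In shGFP cells TGFB2 was called lower as deposited (−0.29, limma adjusted p = 0.0274) but in neither scaling (−0.23 and −0.13). Of 3 partners of ID proteins and related helix-loop-helix genes, the E protein gene TCF3 was lower in both lines (−0.35 and −0.31 in shMLKL and shGFP cells, limma adjusted p = 0.00216 and 0.00226).

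On the FGF side, FGFR4, the receptor of FGF19, stood between 1.81 and 3.23 FPKM in the second experiment and was not called in either line (−0.02 in each). KLB did not pass the filter, at 0.124 FPKM in its highest group. Of 8 FGF receptor and co-receptor genes kept in the second experiment, 3 were higher and 2 lower in shMLKL cells (median 0.13). In shGFP cells 4 were higher and 1 lower (median 0.11). Of all genes 20.0% were called higher and 17.6% lower in shMLKL cells, and 19.1% higher and 37.3% lower in shGFP cells. SDC4, a heparan sulphate co-receptor, averaged 433 FPKM under TBZ and 98.2 FPKM under DMSO in shMLKL cells (2.13, SE 0.05, limma adjusted p = 1.29e-07), and 747 against 87.9 FPKM in shGFP cells (3.07, SE 0.05, limma adjusted p = 1.23e-08). SDC1, of the same family, was lower in both (−1.072 and −0.998 in shMLKL and shGFP cells, limma adjusted p = 6.31e-06 and 4.37e-06). FRS2, the docking protein of FGF receptors, was higher in both (0.44 and 0.62 in shMLKL and shGFP cells), and the glypican gene GPC1 in shGFP cells (0.47). Of 10 feedback and ETS genes of the FGF and ERK pathway 3 were higher and 4 lower in shMLKL cells (median −0.18). In shGFP cells 4 were higher and 5 lower (median −0.05). ETV1, among the 5 lower, passed the filter only through shGFP cells under DMSO, so its call is not read. The feedback inhibitor SPRY1 was lower (−1.09 and −1.46 in shMLKL and shGFP cells, limma adjusted p = 0.000199 and 2.46e-05), while its relative SPRY4 was higher (0.31 and 0.67 in shMLKL and shGFP cells, limma adjusted p = 0.0162 and 0.000246). FLRT3, which binds FGF receptors, was lower in both (−1.07 and −1.01 in shMLKL and shGFP cells), and the ETS factor ETV5 higher (0.59 and 0.38 in shMLKL and shGFP cells). RXRA, the partner of the bile acid receptor and the only gene of that list kept, was lower in both (−0.35 and −0.65 in shMLKL and shGFP cells, limma adjusted p = 0.00382 and 0.000102). NR1H4, the bile acid receptor itself, had its highest group mean at 0.159 FPKM. In the first experiment, without a test, RXRA had 6.68 FPKM in parental cells after 4 h of TBZ, against 34.8 FPKM under DMSO. In shMLKL cells after 12 h it was higher under TBZ, with 25.1 against 13.2 FPKM. ETV5 was lower under TBZ at 4 h (9.26 against 10.5 FPKM) and at 12 h (8.79 against 13.2 FPKM). SPRY4 was higher at 4 h (18.2 against 5.89 FPKM) and lower at 12 h (7.73 against 9.92 FPKM). SDC4, FRS2 and GPC1 were higher and SDC1, SPRY1 and FLRT3 lower in both pairs. FGFR4, not called in the second experiment, was also lower under TBZ in both pairs of the first. It had 6.99 against 12.1 FPKM in parental cells at 4 h. In shMLKL cells at 12 h it had 2.197 against 9.75 FPKM.

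**Figure D4:**
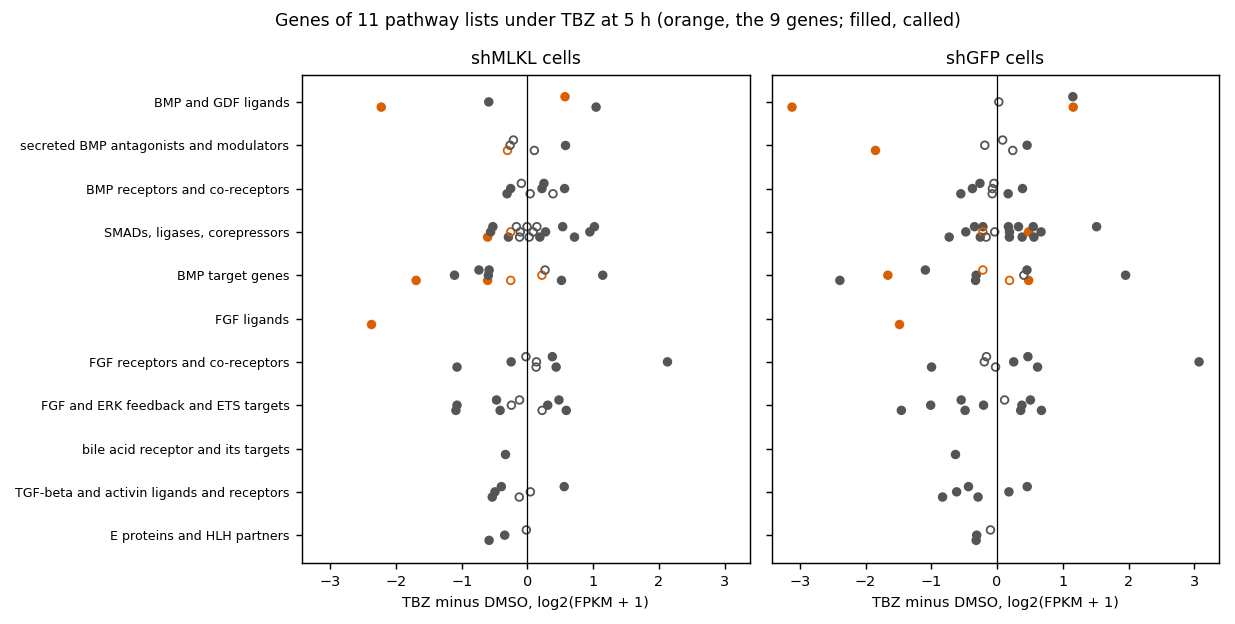
Change under TBZ at 5 h (difference of log2(FPKM + 1)) of the genes of 11 pathway lists that passed the filter, in shMLKL and shGFP cells; each point is a gene, filled where called, and orange for the 9 genes of the report. BMP4 (−3.12 in shGFP cells) and SDC4 (3.07) mark the ends, and most receptor genes lie within 1 of 0.

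Genes with patterns nearest to those of the 9 were found by the root mean square difference of centred log2(FPKM + 1) values over the 8 libraries, as a description. SLITRK6, a transmembrane protein of the SLITRK family, was nearest to BMP4 (0.11), at 0.352 and 5.52 FPKM on average in shMLKL cells under TBZ and DMSO, and 0.461 and 10.3 FPKM in shGFP cells. The next for BMP4, CDC25C and PDF, were listed at 0 in all 4 TBZ libraries. For BMP2 the nearest were SQLE, an enzyme of sterol synthesis (0.08), FAM46C (0.09) and ELMSAN1 (0.10). ARID5B was near SOSTDC1 (0.21), after MED11 and NDUFC2-KCTD14, which were listed at 0 in 3 of the 4 groups. RNF43 (0.11), which removes WNT receptors from the membrane, and IRS1 (0.12), an adaptor of insulin receptors, were near ID1, after AATK, which was listed at 0 in all 4 TBZ libraries. PADI1 (0.23), B3GALT5 (0.31) and PRR5L (0.47) were nearest to FGF19. For SMAD6 they were WDR43, ZNF511 and CAV2 (0.09 to 0.10), for SMAD7 LRRC8A, JMJD6 and TPM4 (0.06 to 0.11), and for ID2 SNRPA1, LYAR and FDPS (0.08 to 0.09). For ID3 they were ADAM17, MORC3 and KDM6A (0.0490 to 0.0499). For SMAD6, SMAD7 and ID2 more than 1000 genes lay within 0.25, and for ID3, whose values are near 0, 107 genes lay within 0.10, so those names say little.

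In the first experiment, with 1 library per group and no test, FPKM of the RefSeq transcripts of each gene were summed from the authors' Cufflinks lists (hg19). BMP4 had 9.81 FPKM in parental cells after 4 h of TBZ (deposited interval 8.52 to 11.1), against 153 FPKM under DMSO (145 to 162). In shMLKL cells it had 51.4 FPKM after 12 h of TBZ (48.0 to 54.9), against 101 FPKM under DMSO (94.6 to 107). It was lower in both pairs, and the 4 h and 12 h libraries come from different lines, so the times are not compared. Of its 3 RefSeq transcripts NM_130850 and NM_001202 held all of the FPKM, and NM_130851 was listed at 0 in the 4 libraries. NM_130850 had 7.78 FPKM in parental cells after 4 h of TBZ, against 106 FPKM under DMSO, and NM_001202 had 2.03 FPKM after TBZ, against 47.3 FPKM under DMSO.

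FGF19 and SOSTDC1 were also lower in both pairs. FGF19 had 8.57 FPKM in parental cells after 4 h of TBZ, against 46.9 FPKM under DMSO, and 7.51 FPKM in shMLKL cells after 12 h, against 35.6 FPKM under DMSO. SOSTDC1 had 0.289 FPKM in parental cells after 4 h of TBZ, against 1.61 FPKM under DMSO, and 0.314 FPKM in shMLKL cells after 12 h, against 2.36 FPKM under DMSO. The deposited intervals of each pair were apart. Under DMSO the shMLKL library was below the parental library in FGF19 (35.6 against 46.9 FPKM) and above it in SOSTDC1 (2.36 against 1.61 FPKM). In the second experiment the shMLKL libraries were above the shGFP libraries in FGF19 and below them in SOSTDC1.

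The ID genes again differed from each other. ID3 had 2.58 FPKM in parental cells after 4 h of TBZ (2.08 to 3.08), against 0.0266 FPKM under DMSO, and 0.778 FPKM in shMLKL cells after 12 h (0.514 to 1.04), against 0.0475 FPKM under DMSO, with intervals of both DMSO libraries reaching 0. ID2 had 14.6 FPKM under TBZ against 9.74 FPKM under DMSO at 4 h, and 12.1 FPKM under TBZ against 8.65 FPKM under DMSO at 12 h, with intervals apart in both pairs. ID1 had 77.5 FPKM in shMLKL cells after 12 h of TBZ (73.1 to 81.9), against 96.0 FPKM under DMSO (90.7 to 101). In parental cells ID1 was listed at 0 after 4 h of TBZ, against 132 FPKM under DMSO. In that library Cufflinks joined ID1 with its neighbour HM13 in 1 locus of 7 transcripts, only 1 of them above 0, an HM13 transcript, and 132 of 4958 genes with at least 10 FPKM in parental cells under DMSO were likewise listed at 0. No fold is therefore given for ID1 at 4 h.

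The levels of BMP2, SMAD6 and SMAD7 in the first experiment, and their directions at 12 h, depended on assembled transcripts without a gene name that shared their loci. At 4 h the direction was the same with and without them for each of the 3 genes. The RefSeq intervals of TBZ and DMSO overlapped for BMP2 at 4 h and at 12 h and for SMAD7 at 4 h. No change is therefore read from those RefSeq values. BMP2 had 3.55 FPKM in parental cells after 4 h of TBZ, against 3.26 FPKM under DMSO, from its RefSeq transcript, and 8.72 FPKM under TBZ against 4.85 FPKM under DMSO with the assembled ones within 1 kb. At 12 h in shMLKL cells its RefSeq transcript had 2.81 FPKM under TBZ against 2.54 FPKM under DMSO. With the assembled ones it had 2.81 FPKM under TBZ against 3.50 FPKM under DMSO. From RefSeq transcripts SMAD6 had 4.47 FPKM under TBZ against 6.93 FPKM under DMSO at 4 h, and 4.15 FPKM under TBZ against 12.3 FPKM under DMSO at 12 h. These transcripts held 15.1 to 60.6% of its locus. The locus also holds the noncoding gene LINC01169, and the assembled FPKM was not divided between it and SMAD6. With them the sum was 7.91 FPKM under TBZ against 46.0 FPKM under DMSO at 4 h, and 26.4 FPKM under TBZ against 20.3 FPKM under DMSO at 12 h, so its direction at 12 h turned. SMAD7 had 9.65 FPKM under TBZ against 8.76 FPKM under DMSO at 4 h, and 4.12 FPKM under TBZ against 7.46 FPKM under DMSO at 12 h. With assembled transcripts the sum at 4 h was 12.3 FPKM under TBZ against 8.76 FPKM under DMSO. At 12 h it had 9.43 FPKM under TBZ against 7.46 FPKM under DMSO with an assembled transcript of 5.31 FPKM in place of NM_001190822, which was listed at 0 there.

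**Figure D5:**
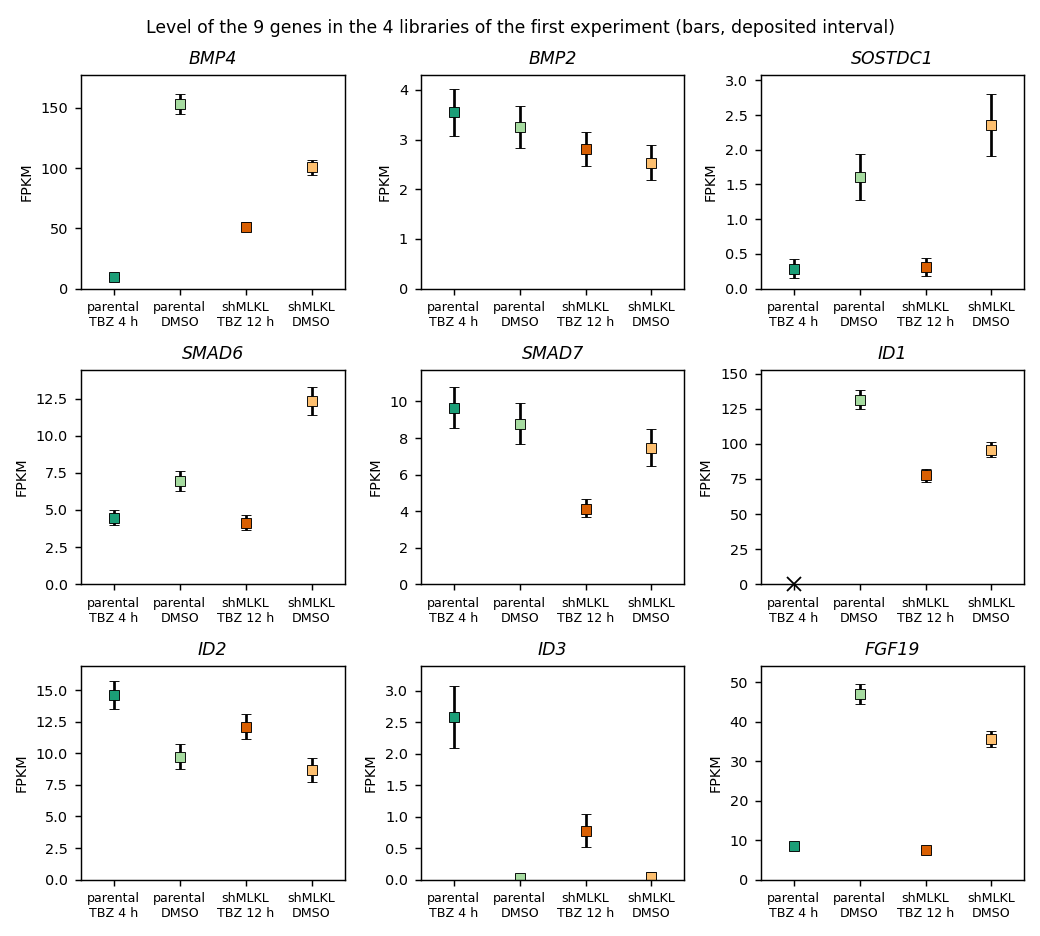
FPKM (linear axes from 0) of the 9 genes in the 4 libraries of the first experiment, from RefSeq transcripts; bars are the interval deposited by the authors and the cross marks ID1 listed at 0 in parental cells after 4 h of TBZ. BMP4, SOSTDC1 and FGF19 lie below the DMSO library in both pairs, and ID2 and ID3 above it.

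Counted over the genes with at least 1 FPKM in either library of a pair, 1 of the 9 genes, ID3, was at least 2-fold higher after 4 h of TBZ in parental cells and 4, BMP4, SOSTDC1, FGF19 and, as a listed 0, ID1, at least 2-fold lower, where 11.0% of all genes were higher and 19.8% lower by that much. After 12 h in shMLKL cells none was at least 2-fold higher, since ID3 did not reach 1 FPKM, and 3, SOSTDC1, SMAD6 and FGF19, were at least 2-fold lower, where 11.6% of all genes were higher and 14.8% lower. Nothing is read from these counts either, and the median log2 ratio of all genes was −0.22 at 4 h and −0.13 at 12 h.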

How the data were processed

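Libraries of polyadenylated RNA were made with a stranded TruSeq kit and read from both ends, per the labels' protocols. The tools were Cufflinks 2.2.1, TopHat2 2.0.13, GATK and STAR 2.4.0f1, with hg19 as the genome and no role stated, per the submitters' processing notes. The 4 lists of the first experiment give FPKM with an interval for each transcript, per the file headers. The authors deposited 1 gene table for the second experiment; its header names no unit, and the values were taken as FPKM. The 9 genes and all gene lists were chosen with earlier results of these data known.

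Where a symbol stood on several lines (384 of 19128), its line of highest mean was used. Log2(FPKM + 1) values were fitted by group in limma 3.58.1 (R 4.3.3) with a trended empirical Bayes variance (residual degrees of freedom 4, prior 3.46), two-sided, with Benjamini-Hochberg adjustment within each of 5 contrasts. The procedure was tested on simulated data. From each of 11 lists up to 4 called genes with the largest change under TBZ are named, besides 12 receptor and SMAD genes, the 3 genes nearest to each of the 9, and MLKL. RefSeq transcripts of the first experiment were matched by accession. The alternatives were a pseudocount of 0.1, no filter, 2 scalings, summed lines, a replicate block and leaving out each library.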

Additional observations from a re-analysis of the deposited data

Results flagged for a closer look

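The difference of the TBZ effects (shMLKL minus shGFP) was called by limma for 5 of the 8 genes, where 22.3% of all genes were called. It was 0.90 for BMP4, −0.59 for BMP2, 1.55 for SOSTDC1, −0.73 for SMAD7 and −0.90 for FGF19 on the log2(FPKM + 1) scale. The genes were chosen with this comparison known, so the calls describe them and support nothing. The FGF19 call was lost with a pseudocount of 0.1 (−0.42), the BMP2 call without the filter and without any of 6 of the 8 libraries, and the SMAD7 call without any of 4. SMAD7 is the one whose libraries moved in opposite directions, below DMSO in shMLKL cells and above it in shGFP cells. Groups of 2 libraries are too small for a search for outlying samples.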

How the results depend on the processing

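The log2 changes of the 8 genes were fitted in 5 contrasts under 6 other settings and without each of the 8 libraries, and the sign turned for ID2, BMP2 and ID1 only where no call was made. The ID2 difference between the lines' effects (0.031) became −0.061 with medians equalised and −0.064 with quantiles equalised, and ran from −0.26 to 0.32 when each library was left out, while the ID2 change in shMLKL cells ran from −0.074 to 0.51. BMP2 between the lines under DMSO (−0.071) became 0.098 with medians equalised and 0.17 with quantiles equalised, and ran from −0.18 to 0.042 when each library was left out. ID1 then ran from −0.13 to 0.071 in the difference of effects and from −0.027 to 0.18 between the lines under DMSO. In the first experiment the log2 ratio at 12 h became −0.32 for BMP2 and 0.38 for SMAD6 over all transcripts within 1 kb in the Cufflinks locus, and 0.34 by that sum and 0.051 by the highest RefSeq transcript for SMAD7. That sum was chosen after seeing the data, because assembled transcripts carry no gene name and the planned one could not be run. The causes were not tested. Without the filter 3 of the 5 called genes were called between the lines under DMSO. Leaving out a library gave 4576 to 5837 called genes in shGFP cells, 2846 to 3680 in shMLKL cells, 1314 to 1690 in the difference (2306 with all), 5490 to 6562 between the lines under DMSO and 4181 to 5264 under TBZ, and 5 to 7, 5 to 6, 3 to 5, 3 to 5 and 4 to 5 of the 8 genes. Replicate numbers did not pair the libraries: deviations of same-numbered libraries correlated at −0.066 to 0.028 over 6 group pairs. With the number as a replicate block 5711, 3714, 2062, 6450 and 5222 genes were called in the same order of contrasts, and of the 8 genes only SMAD6 between the lines under DMSO (−0.26) lost its call. With 2 libraries a group, only differences well above the replicate spread are called, and without counts no detection limit can be given.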
